A study of Mus musculus with 6 samples.

Results

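Oxidative phosphorylation genes are described here across 6 whole-transcript arrays of mouse macrophages, 3 from cultures given an antibody against the receptor CSF1R and 3 from cultures given a control IgG. Members were taken by symbol, as nuclear genes that start with Nduf (complex I), the genes Sdha to Sdhd (complex II), Uqcr genes and Cyc1 (complex III), Cox4 to Cox8 genes (complex IV) and Atp5 genes (complex V). Each gene was read from the probe set annotated to it alone that had the highest mean over the 6 arrays. This gave 90 of the 22180 genes measured: 80 subunits, 8 complex I assembly factors (Ndufaf1 to Ndufaf8) and 2 pseudogenes (Uqcrh-ps1 and Atp5c1-ps). Levels are log2 intensities as deposited, and changes are antibody minus IgG on the log2 scale.

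In both groups, bone marrow cells of C57BL/KaLwRij mice, 3 animals in all, were grown with the growth factor M-CSF for 7 days to give macrophages and then spent a night in coculture with 5TGM1-luc, mouse myeloma cells marked with luciferase. The antibody group then had 0.5 nM of the CSF1R antibody for 3 days, and the control group had IgG for the same time, with no dose of its own in the labels. Mouse age is not given in the labels. Cultures were washed 4 times against myeloma cells before RNA was taken. No label ties a replicate to an animal, so the p-values reflect sample-to-sample spread, part or all of which may be technical.

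Oxidative phosphorylation is the process by which mitochondria turn the oxidation of nutrients into ATP. Complexes I and II feed electrons from NADH and succinate to coenzyme Q, complex III passes them to cytochrome c, complex IV hands them to oxygen, and complex V, the ATP synthase, uses the proton gradient so made. Most subunits are encoded in the nucleus and a few in mitochondrial DNA, while complex II is wholly nuclear. In macrophages the balance between this pathway and glycolysis is known to change with activation state.

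With the antibody, 28 of the 90 genes were lower and 0 were higher (limma, adjusted p under 0.05 over all genes). Over all genes tested, 28.5% passed, 16.0% as lower and 12.5% as higher. Most members have signal well above that of genes macrophages are not thought to use, and 84 of 90 had a mean in at least 1 group above a guide taken from odorant and pheromone receptors (4.92, the 95th percentile of 1390 receptor genes). Over the 13110 genes above that guide, 46.1% passed, 26.0% as lower and 20.1% as higher, so the share of members that were lower, 31.1%, stood near this background. The 0 higher members stood beside 20.1%. The median change was −0.15 for all members, −0.02 for all genes and −0.06 for genes above the guide. All changes were small, from −0.45 to 0.15.

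The antibody arrays lay wholly below the IgG arrays for 47 of the 90 members, and wholly above them for 2, Sdhb and Cox7a2l. Over all genes these shares were 22.7% and 16.6%, and over genes above the guide 35.1% and 24.7%. The share of genes that passed as lower varied with signal. Between log2 signals of 7 and 9, 11 of 25 subunits (44.0%) were lower, against 33.5% of all genes there. Between 9 and 11, 9 of 31 subunits (29.0%) were lower, against 38.4%. Above 11 it was 2 of 8 subunits against 35.2% of all genes, and between 5 and 7 it was 3 of 11 (27.3%) against 13.6%.

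The count of members depended on the scaling and on single arrays. Cyclic loess scaling between arrays left 9 lower members of 90, where 10.6% of all genes were lower, and brought 2 higher ones. It also turned the split of calls over all genes, in which 59.3% of called genes were then higher, in place of 43.8%. Centring arrays on their medians left 16 lower members, where 12.5% of all genes were lower. Other fits gave more lower members, 35 with an intensity trend (17.6% of all genes lower), 38 with only genes above the guide tested (30.8%) and 42 when the test kept the brighter 50% of genes (36.4%). When antibody array 1 or 2 (numbered by replicate) was left out, 16 members were lower. The 9 genes that stayed lower with cyclic loess also passed in each of the 15 other fits at the same threshold. These were Ndufaf4, Ndufaf6, Ndufa5 and Ndufa11 of complex I, Cyc1 and Uqcrq of complex III, Cox6a2 and Cox4i2 of complex IV and Atp5g1 of complex V. All 28 lower members kept a negative change in the 16 alternative fits.

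**Figure D1:**
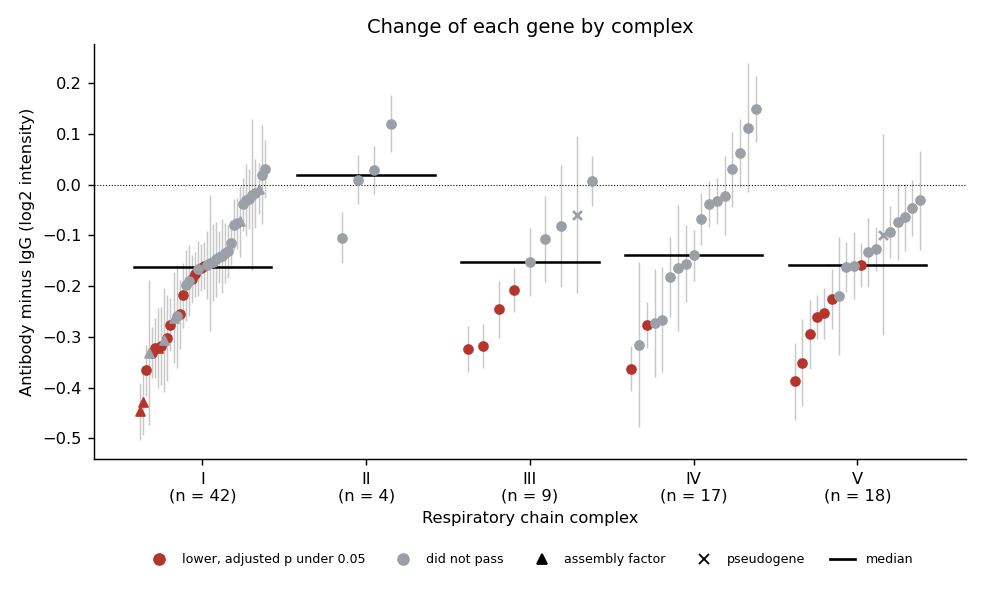
Change of each of the 90 genes (antibody minus IgG, log2 intensity, vertical axis) by complex (horizontal axis), with limma's standard error as bars and the median of each complex as a black line. Red symbols passed as lower, grey did not pass. Lower genes are seen in complexes I, III, IV and V, with medians of −0.16, −0.15, −0.14 and −0.16, while the 4 complex II genes centre on 0.02.

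Several cell types could contribute RNA, and in bulk samples fewer cells of a type and less RNA per cell cannot be told apart. Of 19 macrophage identity genes, 18 were higher with the antibody, with a summed intensity of 41571 to 43876 on antibody arrays against 25531 to 26390 on IgG arrays, and Cd163 lay below the guide. Of 19 plasma cell and myeloma genes, 12 were lower and 1 (Slamf7) higher, with sums of 29928 to 33804 against 35850 to 37097, and Tnfrsf17 and Cd79a lay below the guide. Pou2af1 and Ighm of this list were well above the guide on all arrays, so the washed cultures of both groups may have held RNA of that lineage. Of 14 stromal and smooth muscle genes, 9 were lower and 1 higher, with sums of 1494 to 1556 against 2701 to 2785, and Lum and Dcn (the higher gene) lay below the guide. All 17 cell cycle genes were lower, with sums of 12760 to 13612 against 17962 to 18310. The part of these cell types in the changes of the oxidative phosphorylation genes was not tested.

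Complex I, which oxidises NADH, had the most members. Of 42, 15 (35.7%) were lower and 0 higher, with a median of −0.16, and the antibody arrays lay wholly below the IgG arrays for 26. Over genes above the guide, 26.0% were lower, 20.1% higher and 35.1% wholly below. These shares also stand beside the counts of the other complexes and of the lists that follow. The core subunits of complex I carry out electron transfer and the accessory subunits surround them. Ndufaf proteins help build the complex without staying in it. Of 6 core subunits, 2 were lower (0 when antibody array 1, IgG array 1 or IgG array 3 was left out, and with cyclic loess). Of 27 accessory subunits by name, with Ndufa4 counted and Ndufa4l2 left out, 10 were lower. Of 8 assembly factors, 3 were lower.

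The assembly factors held the largest falls of all members. Ndufaf4 was at 8.06, 7.92 and 8.02 on the antibody arrays, against 8.45, 8.40 and 8.50 on the IgG arrays. The groups were apart by more than the spread within either, and the fall was 0.45 (SE 0.06; adjusted p = 0.0014). Ndufaf6 was at 6.09, 6.10 and 6.22 on the antibody arrays, against 6.57, 6.65 and 6.48 on the IgG arrays. This fall, of 0.43 (SE 0.07; adjusted p = 0.0033), also left no overlap. Ndufaf1 was at 8.02, 8.02 and 8.06 against 8.27, 8.52 and 8.27 with IgG, a change of −0.32 (SE 0.08; adjusted p = 0.022). Ndufaf7 (7.62 ± 0.20 against 7.93 ± 0.03; SD, n = 3 each) and Ndufaf5 (5.68 ± 0.02 against 5.94 ± 0.17) did not overlap between groups either but did not pass, with adjusted p = 0.070 and 0.076. Ndufaf3 stood at 7.96 ± 0.06 and 7.97 ± 0.03, with a 95% interval of its change from −0.13 to 0.11, and Ndufaf8 at 7.44 ± 0.11 and 7.51 ± 0.06.

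Among accessory subunits, Ndufa5 was at 7.00, 7.03 and 6.98 on the antibody arrays, against 7.34, 7.44 and 7.33 on the IgG arrays. Its fall of 0.37 (SE 0.05; adjusted p = 0.0021) was the largest of any complex I subunit. Ndufa11, a subunit of the membrane arm, was at 9.09, 9.18 and 9.06, against 9.44, 9.44 and 9.45 with IgG. The IgG arrays agreed within 0.01 (SD) and the change was −0.33 (SE 0.05; adjusted p = 0.0032). Ndufa2 was at 9.09, 9.12 and 8.98, against 9.41, 9.33 and 9.42 with IgG, a change of −0.32 (SE 0.06; adjusted p = 0.0068). Ndufs4, whose loss in people causes Leigh syndrome, was at 8.20, 8.33 and 8.28, against 8.53, 8.53 and 8.58 with IgG. Its change was −0.28 (SE 0.05; adjusted p = 0.0078), with no overlap between the groups. Ndufa2 (adjusted p = 0.071) and Ndufs4 (adjusted p = 0.055) passed in each other fit but not with cyclic loess. The remaining lower accessory subunits, Ndufa9, Ndufa7, Ndufb6, Ndufv3, Ndufa10 and Ndufa12, changed by −0.30 to −0.16.

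Of the core subunits, Ndufv1, which binds NADH and the flavin, changed by −0.32 (SE 0.08; adjusted p = 0.022), and Ndufs3 by −0.18 (SE 0.04; adjusted p = 0.024). The iron-sulfur subunits Ndufs8 (−0.16), Ndufs7 (−0.14) and Ndufv2 (−0.13) did not pass. Ndufs1, the largest iron-sulfur subunit, changed by −0.03, with a standard error of 0.07. Core and accessory subunits thus both held members that passed and members near 0, among them Ndufc2 (0.03), Ndufb11 (0.02), Ndufa1 (−0.02) and Ndufa13 (−0.03).

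Many complex I calls rested on all 6 arrays. The count of 15 was 6 or 7 when antibody array 1 or 2 was left out, 8 when IgG array 3 was, 8 with arrays centred on their medians and 4 with cyclic loess. It was 24 when the test kept the brighter 50% of genes. Without antibody replicate 1, Ndufaf1, Ndufv1, Ndufs3, Ndufa9, Ndufa7, Ndufb6, Ndufv3, Ndufa10 and Ndufa12 no longer passed (adjusted p from 0.064 to 0.12). Without antibody replicate 2 or 3 the same held for these genes other than Ndufs3 (0.054 to 0.093 and 0.054 to 0.12). Without IgG replicate 1, Ndufv1, Ndufs3, Ndufa9, Ndufa7, Ndufb6 and Ndufa10 were lost (0.059 to 0.105), and without IgG replicate 2, Ndufv3, Ndufa10 and Ndufa12 (0.061 to 0.13). Without IgG replicate 3, Ndufv1, Ndufs3, Ndufa7, Ndufb6, Ndufv3, Ndufa10 and Ndufa12 were lost (0.055 to 0.13).

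Ndufa4 carries a complex I name but is now known as a subunit of complex IV. It was at 11.18, 11.20 and 11.32 on the antibody arrays, against 11.41, 11.38 and 11.41 on the IgG arrays. The groups did not overlap, yet the change of −0.17 (SE 0.05) did not pass (adjusted p = 0.068). It passed in 6 of the 16 alternative fits. These were without antibody replicate 3 (adjusted p = 0.022), with an intensity trend, with array weights and with each of 3 filters on signal. Ndufa4l2, its hypoxia-induced paralog, was at 5.21, 5.25 and 5.10, against 4.86, 5.41 and 5.35 with IgG, near the guide, with groups that overlapped and a 95% interval of the change from −0.38 to 0.34.

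Complex II, succinate dehydrogenase, also serves the tricarboxylic acid cycle. None of its 4 genes passed, in either direction, and 3 of the 4 values were above 0. Sdha, the flavoprotein that oxidises succinate, was at 10.64, 10.64 and 10.73 on the antibody arrays, against 10.65, 10.64 and 10.63 on the IgG arrays. These groups overlapped, and the 95% interval of the change ran from −0.09 to 0.14. Sdhb, the iron-sulfur subunit, was at 8.37, 8.36 and 8.29, against 8.25, 8.14 and 8.28 with IgG. Each antibody array was above each IgG array, by a mean of 0.12 (SE 0.06; adjusted p = 0.18). Sdhc, a membrane anchor, was at 9.31, 9.41 and 9.38, against 9.51, 9.43 and 9.47 with IgG, and here each antibody array was below each IgG array (−0.10, SE 0.05; adjusted p = 0.19). Sdhd, the other anchor, was at 9.94, 9.99 and 9.89 against 9.96, 9.90 and 9.92 with IgG, and the groups overlapped.

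The complex II median was 0.02. It was 0.03 without IgG replicate 1 and 0.01 without IgG replicate 2. With cyclic loess it was 0.14 and Sdhb passed as higher (0.23, adjusted p = 0.034), and Sdhc then stood at 0.01. Whether complex II differed from the other complexes was not tested.

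Complex III, which passes electrons to cytochrome c, had 4 lower members of 9, 0 higher, and a median of −0.15. Its lower share was 44.4%, against 26.0% of genes above the guide. Cyc1, cytochrome c1, was at 8.02, 8.01 and 8.01 on the antibody arrays, against 8.33, 8.30 and 8.36 on the IgG arrays. The spread within each group was at most 0.03 (SD) and the fall was 0.32 (SE 0.04; adjusted p = 0.0021), or 0.802-fold on the linear scale. Uqcrq, a small accessory subunit, was at 6.67, 6.62 and 6.68, against 6.96, 7.00 and 7.00 with IgG. It also changed by −0.32 (SE 0.04; adjusted p = 0.0021). Uqcrc2, one of the large core proteins, was at 10.30, 10.34 and 10.30, against 10.52 on each of the 3 IgG arrays. Its change was −0.21 (SE 0.04; adjusted p = 0.011), which was lost with centred arrays and with cyclic loess (adjusted p = 0.25). Uqcrb was at 11.66, 11.69 and 11.81, against 11.96, 12.00 and 11.93 with IgG, a change of −0.25 (SE 0.06; adjusted p = 0.018). The Uqcrb call was lost when antibody array 1 or 2 was left out (adjusted p = 0.061 and 0.063), and when IgG array 1 or 2 was (0.051 and 0.060). It was also lost with centred arrays (0.059) and with cyclic loess (0.089).

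The other complex III members did not pass. Uqcrfs1, the Rieske iron-sulfur protein, changed by −0.15 (SE 0.07), Uqcr11 by −0.11 and Uqcrh by −0.08. Uqcrc1, the partner of Uqcrc2 in the complex, changed by 0.01, with a 95% interval from −0.11 to 0.12. The pseudogene Uqcrh-ps1 lay below the guide on all arrays.

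Complex IV, cytochrome c oxidase, had 2 lower members of 17 and a median of −0.14, and 3 of the 17 lay below the guide. Its lower share was 11.8%, against 16.0% of all genes and 26.0% of genes above the guide. Several of its nuclear subunits come as a widely expressed form and a form known from particular tissues. The 2 lower genes were both of the second kind. When the test kept the brighter 50% of genes there were 5, the others being the widely expressed Cox7a2 (adjusted p = 0.028), Cox7b (0.044) and Cox5b. Cox6a2, the heart and skeletal muscle form, was at 9.22, 9.22 and 9.25 on the antibody arrays, against 9.56, 9.62 and 9.60 on the IgG arrays. Its fall of 0.36 (SE 0.04; adjusted p = 0.0012) was the smallest adjusted p of the 90 genes. Cox4i2, the lung-enriched form, was at 6.63, 6.63 and 6.62, against 6.96, 6.88 and 6.88 with IgG. It changed by −0.28 (SE 0.05; adjusted p = 0.0045), and both genes passed in all alternative fits.

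The widely expressed partners of these genes did not pass. Cox6a1 was at 12.68, 12.66 and 12.42, against 12.75, 12.74 and 12.80 with IgG. The antibody arrays were wholly lower, but antibody replicate 3 stood apart from the other two and the change was −0.18 (SE 0.08; adjusted p = 0.15). Cox4i1 was at 9.47, 9.51 and 9.51, against 9.56, 9.49 and 9.54 with IgG, with overlap and a 95% interval of its change from −0.14 to 0.08. That interval does not reach the change of Cox4i2, but the difference between the changes of the 2 forms was not tested.

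The Cox7a family had changes of both signs, and none passed. Cox7a2 was at 9.18, 9.22 and 9.17, against 9.30, 9.30 and 9.39 with IgG (−0.14; adjusted p = 0.089). Cox7a2l, which links complexes III and IV into supercomplexes, was at 7.77, 7.77 and 7.70, against 7.63, 7.48 and 7.68 with IgG. All 3 antibody arrays were above all IgG arrays, by a mean of 0.15 (SE 0.07; adjusted p = 0.16), and the gene passed as higher with cyclic loess (0.25; adjusted p = 0.035). Cox7a1, the muscle form, was at 5.80, 5.73 and 5.78, against 5.58, 5.78 and 5.75 with IgG, with overlap.

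In the remaining families, Cox7b was at 8.47, 8.64 and 8.76, against 8.81, 9.06 and 8.80 with IgG (−0.27, SE 0.10; adjusted p = 0.11). Cox6b1 was at 9.19, 9.22 and 9.27, against 9.32, 9.54 and 9.29 with IgG (−0.16; adjusted p = 0.20). For both genes the antibody arrays were wholly below the IgG arrays. Cox8a averaged 10.92 ± 0.03 with the antibody and 10.96 ± 0.04 with IgG (SD, n = 3 each), with overlap. Cox6b2, known from testis, was at 4.81, 4.65 and 4.53, against 4.62, 5.15 and 5.17 with IgG, at or near the guide, with overlap. It passed without IgG replicate 1 (−0.50; adjusted p = 0.018). Cox7b2, Cox8b and Cox8c lay below the guide on all arrays, between 2.70 and 3.82, where a change could not be read. Cox5b changed by −0.27 (SE 0.11), Cox7c by −0.16 and Cox5a by −0.02, with overlap in each case. The complex IV median was −0.08 without IgG replicate 2 and −0.09 without IgG replicate 3.

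**Figure D2:**
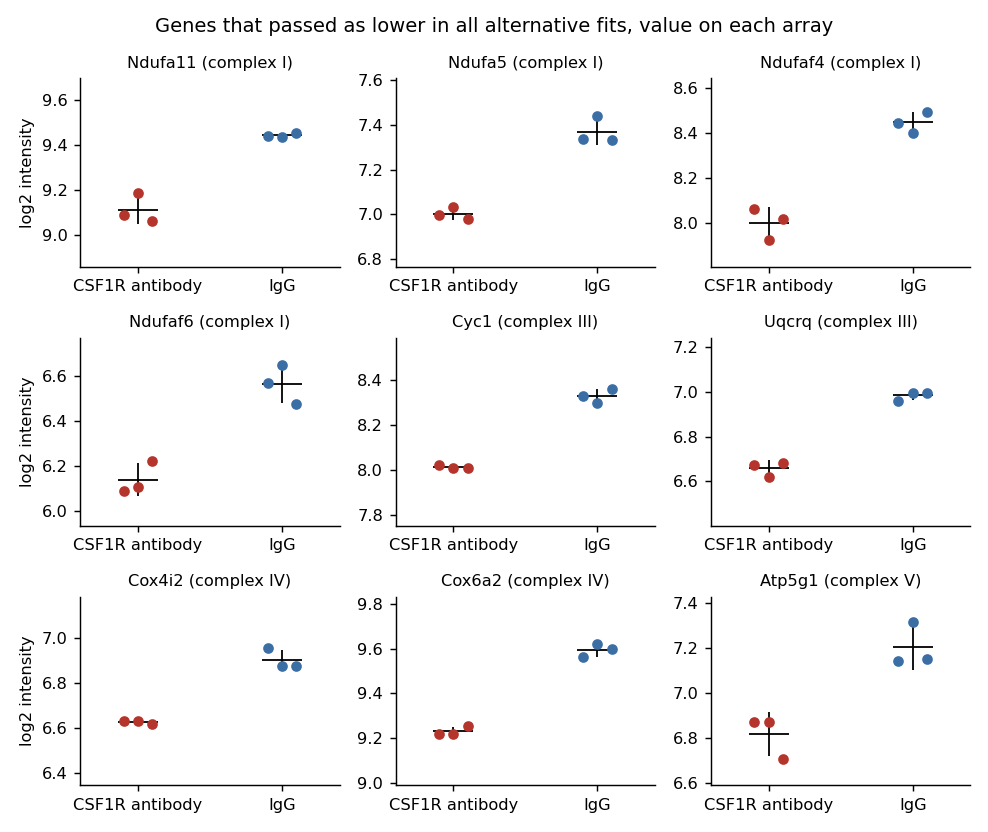
Log2 intensity (vertical axis) on each array for the 9 genes that passed as lower in all 16 alternative fits, with 3 CSF1R antibody arrays in red at left and 3 IgG arrays in blue at right. Black marks are means with SD, and each panel spans the same height. No antibody array reaches an IgG array in any panel, as for Cyc1 with 8.01 to 8.02 against 8.30 to 8.36.

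Complex V, the ATP synthase, consists of the F1 head that makes ATP, the membrane Fo part that holds the ring of c subunits, and a peripheral stalk between them. Of its 18 members 7 were lower and 0 higher, with a median of −0.16. The lower share was 38.9%, against 26.0% of genes above the guide. All 18 changes were negative, as were 12250 of the 22180 genes and 7705 of the 13110 above the guide. With cyclic loess, Atp5a1 (0.02), Atp5h (0.04), Atp5l (0.05) and Atp5d (0.07) had positive changes. In the F1 head, Atp5b, the catalytic beta subunit, was at 12.24 on each of the 3 antibody arrays, against 12.50, 12.53 and 12.48 on the IgG arrays. The 3 antibody values were identical, a tie in the deposited values. Atp5b changed by −0.26 (SE 0.04; adjusted p = 0.0045), a call lost with cyclic loess only (adjusted p = 0.070). The other F1 subunits Atp5a1 (−0.09), Atp5c1 (−0.13), Atp5d (−0.05) and Atp5e (−0.16) did not pass.

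Atp5g1, Atp5g2 and Atp5g3 are known to encode the same mature c subunit with different import sequences. Atp5g1 was at 6.87, 6.87 and 6.70 on the antibody arrays, against 7.14, 7.32 and 7.15 on the IgG arrays. Its fall of 0.39 (SE 0.08; adjusted p = 0.0089) was the largest of any subunit. Atp5g3 was at 8.65, 8.63 and 8.73, against 8.95, 8.92 and 8.81 with IgG (−0.22, SE 0.06; adjusted p = 0.029). Atp5g2 was at 11.53, 11.54 and 11.56, against 11.70, 11.65 and 11.65 with IgG. The groups did not overlap for any of the 3, while the Atp5g2 change of −0.13 (SE 0.04) did not pass (adjusted p = 0.078). It did pass with an intensity trend (adjusted p = 0.0077) and with genes below the guide left out (0.030).

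In the stalk, Atp5j was at 7.00, 7.04 and 7.04, against 7.34, 7.27 and 7.22 with IgG (−0.25, SE 0.05; adjusted p = 0.0096, and 0.058 with cyclic loess). Atp5pb missed the threshold (−0.16; adjusted p = 0.051), as did Atp5o (−0.22) and Atp5h (−0.07). In the rest of Fo, Atp5k, subunit e, was at 8.92, 8.89 and 8.80, against 9.07, 9.14 and 9.28 with IgG (−0.29, SE 0.07; adjusted p = 0.018). Atp5mpl, a small proteolipid, was at 9.22, 9.49 and 9.52, against 9.75, 9.76 and 9.76 with IgG (−0.35, SE 0.09; adjusted p = 0.023). Its IgG arrays were nearly equal while antibody replicate 1 was below the other antibody arrays. Atp5md changed by −0.16 (SE 0.04; adjusted p = 0.037), and Atp5l and Atp5j2 by −0.06 and −0.03 without passing. Atp5j2 and the pseudogene Atp5c1-ps lay below the guide.

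The complex V count of 7 was 4 when antibody array 2 or IgG array 1 was left out, and 3 when IgG array 2 was. With centred arrays it was 4 and with cyclic loess 1. Atp5g3 and Atp5md were lost without antibody replicate 1 (adjusted p from 0.089 to 0.10), and with Atp5k also without antibody replicate 2 (0.052 to 0.093). Atp5k was lost without antibody replicate 3 (0.056), and Atp5mpl, Atp5g3 and Atp5md without IgG replicate 1 (0.072 to 0.085). Without IgG replicate 2 all 4 of these were lost (0.052 to 0.087), and without IgG replicate 3, Atp5mpl and Atp5md (0.071 to 0.074).

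**Figure D3:**
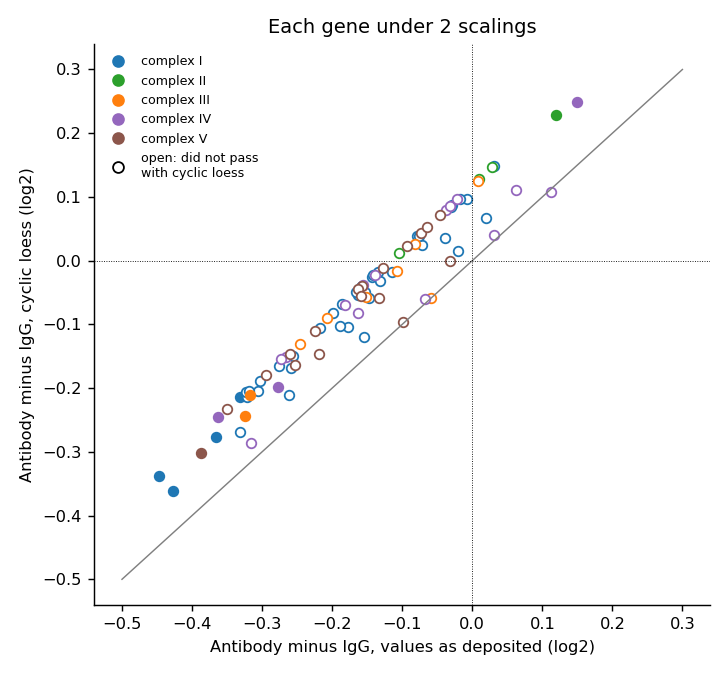
Change of each of the 90 genes with values as deposited (horizontal axis) and after cyclic loess scaling (vertical axis), both antibody minus IgG on the log2 scale, with complexes in colours. Filled points passed with cyclic loess: 9 lower genes at lower left, and Sdhb and Cox7a2l at upper right. Nearly all points lie above the grey line of equal change, and the median of all 90 genes is −0.05 in place of −0.15.

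Other probe sets of the members gave changes of the same sign in most cases. For 9 members a second probe set was annotated to the gene alone, and its change was −0.35 to −0.05 (Ndufa12 and Ndufa8 at the ends). Those of Cox5b (4.36 with the antibody and 4.46 with IgG) and Cox7b (4.11 and 4.44) lay below the guide. A change could not be read there. A further 10 probe sets carried a member's symbol together with another gene's, and 9 of these had a negative change. The exception, shared by Uqcrb and Gm10767, averaged 5.79 with the antibody and 5.65 with IgG. The 10 shared probe sets were not counted, since their signal cannot be assigned, and 9 symbols (such as Cox6c, Ndufs6 and Uqcr10) had only such probe sets. The brighter of the probe sets shared by Cox6c and Gm6265 averaged 10.59 with the antibody and 10.84 with IgG. The probe set shared by Ndufs5 and its pseudogene averaged 8.53 and 8.89, while that of Ndufs5 alone, close to the guide, changed by −0.15 (SE 0.13).

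Subunits encoded in mitochondrial DNA are the partners of the nuclear members in complexes I, III, IV and V. Of 10 measured, 4 were lower and 0 higher, with a median of −0.20: ND4L (−0.30, SE 0.06), ND3 (−0.22, SE 0.05) and ND5 (−0.20, SE 0.06) of complex I and CYTB (−0.20, SE 0.05) of complex III. COX1 averaged 12.87 ± 0.06 with the antibody and 13.02 ± 0.04 with IgG (SD, n = 3 each) and did not pass. The count of 4 was 1, 2 or 7 when antibody array 1, 2 or 3 was left out, and 2 when IgG array 2 was. It was 8 with an intensity trend, 8 with only genes above the guide tested and 9 when the test kept the brighter 50% of genes. It was 1 with centred arrays and 1 with cyclic loess, where ND4L alone passed.

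Assembly factors whose symbols the rule did not take were mixed. Of 36 measured, 11 were lower and 2 higher, with a median of −0.14. Ttc19, a complex III assembly factor, changed by −0.57 (SE 0.06; adjusted p = 5.9e-04), and Ecsit, of complex I assembly and also of Toll-like receptor signalling, by −0.40 (SE 0.06). Bcs1l, which inserts the Rieske protein into complex III, changed by −0.34 (SE 0.09; adjusted p = 0.028), a call lost when any array other than IgG array 2 was left out. Surf1, a complex IV assembly factor, was higher by 0.43 (SE 0.09; adjusted p = 0.010). The other higher gene, Sdhaf2, is a complex II assembly factor, named after its value was seen (0.21; adjusted p = 0.042). Sdhaf1, also of complex II assembly, was lower (−0.22; adjusted p = 0.026), and Sdhaf3 and Sdhaf4 did not pass. The count of lower genes was 7 or 6 when antibody array 1 or 2 was left out and 5 with cyclic loess, and that of higher genes 1 without any single array and 5 with cyclic loess. With centred arrays 6 were lower and 3 higher, and when the test kept the brighter 50% of genes 16 were lower and 5 higher.

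The mobile carriers and the enzymes of coenzyme Q synthesis included 7 lower and 1 higher (Coq8b) of 17 (median −0.18; 4 lower with cyclic loess). Cycs, cytochrome c itself, averaged 10.75 ± 0.03 with the antibody and 11.12 ± 0.05 with IgG (−0.36, SE 0.05; adjusted p = 0.0018). Etfb, of the electron transfer flavoprotein, changed by −0.44 (SE 0.08), Coq2 by −0.38 (SE 0.08) and Pdss2, which makes the tail of coenzyme Q, by −0.33 (SE 0.07).

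In the tricarboxylic acid cycle and the pyruvate dehydrogenase step, 9 of 21 genes were lower and 1 higher, with a median of −0.12 (−0.01 with cyclic loess, where 6 were lower and 2 higher). Pcx, pyruvate carboxylase, changed by −0.53 (SE 0.04) and Idh2, a mitochondrial isocitrate dehydrogenase, by −0.44 (SE 0.06). Pdk4 and Pdk2, kinases that inhibit pyruvate dehydrogenase, moved in opposite directions, with −1.08 (SE 0.09) and 0.45 (SE 0.05). Glycolysis genes gave 2 lower and 4 higher of 15, with a median of 0.01. The lactate exporter gene Slc16a3 was higher, at 8.42 with the antibody and 6.91 with IgG (SE of the difference 0.06; adjusted p = 1.5e-05). Hexokinase 3 (Hk3) was higher by 1.07 (SE 0.05), Pfkfb3 by 0.82 (SE 0.11) and Hk1 by 0.36 (SE 0.05). The 2 lower genes were Pfkp (−0.34) and Hk2 (−0.20), named after their values were seen. They became 1 when antibody array 1 or 2, or IgG array 3, was left out, with centred arrays and with cyclic loess.

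Slc25a4, an exchanger of ADP and ATP across the inner mitochondrial membrane, was at 8.81 with the antibody and 7.86 with IgG, a difference of 0.96 (SE 0.05; adjusted p = 3.2e-05). This was larger than the change of any oxidative phosphorylation member. Its list of 10 carriers, channels and uncoupling proteins had 2 higher and 1 lower genes, with a median of −0.04 (0.02 with cyclic loess). The 1 lower gene, Vdac3 (−0.22), was lost when antibody array 1 or 2, or IgG array 2 or 3, was left out, leaving 0. The second higher gene, Vdac2 (0.18), was lost when antibody array 2 or IgG array 3 was left out. There were 2 lower genes with antibody array 3 left out or with an intensity trend, and 0 with centred arrays or cyclic loess.

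Genes that govern mitochondrial transcription and biogenesis had 12 lower and 0 higher of 18, with a median of −0.31 (9 lower with cyclic loess, median −0.20). Twnk, the mitochondrial helicase, averaged 7.12 ± 0.07 with the antibody and 7.69 ± 0.12 with IgG (−0.57, SE 0.07; adjusted p = 0.0015). The transcription factor gene Tfb2m changed by −0.41 (SE 0.05), Polrmt, the mitochondrial RNA polymerase, by −0.41 (SE 0.05), and Tfam, which packages and transcribes mitochondrial DNA, by −0.40 (SE 0.06). Nuclear factors known to act on promoters of respiratory genes were picked out after their values were seen. Nrf1 averaged 7.21 ± 0.05 and 7.53 ± 0.10 (−0.32, SE 0.07; adjusted p = 0.011), and Gabpb1, a GABP subunit, 7.07 ± 0.06 and 7.39 ± 0.05 (−0.32, SE 0.05; adjusted p = 0.0048). Nrf1 and Gabpb1 passed in all 16 alternative fits. Gabpa, the GABP subunit that binds DNA, averaged 8.76 ± 0.01 and 8.93 ± 0.04 (−0.17, SE 0.05; adjusted p = 0.030), and this call was lost in 8 of the fits, with adjusted p = 0.44 under cyclic loess. Yy1 (−0.10) and Esrra (−0.06) did not pass, and Ppargc1a lay below the guide in both groups.

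**Figure D4:**
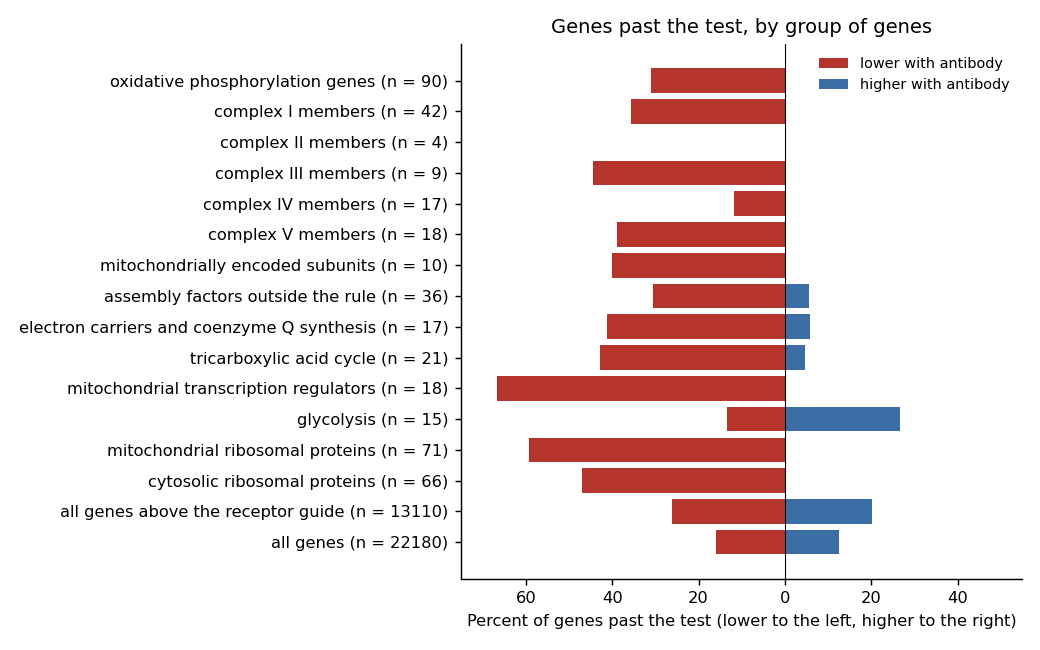
Percent of genes that passed as lower (red, to the left) and higher (blue, to the right) with the antibody in each group of genes, with the number of genes in brackets. Oxidative phosphorylation genes show 31.1% lower and 0 higher, beside 26.0% and 20.1% of all genes above the receptor guide and 16.0% and 12.5% of all genes.

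Ribosomal protein genes, which most cells use, give another set of values for comparison. Of 71 mitochondrial ribosomal protein genes, 42 were lower and 0 higher, with a median of −0.25 (20 lower and 1 higher with cyclic loess, 29 lower and 1 higher without IgG replicate 3). Of 66 cytosolic ones, 31 were lower and 0 higher, with a median of −0.21 (12 lower with cyclic loess, 19 with centred arrays, and 19 without antibody replicate 1 or 2). Mrps18b (−0.54, SE 0.06), Mrpl13 (−0.48, SE 0.07), Mrps10 (−0.47, SE 0.08) and Mrps27 (−0.44, SE 0.05) had the largest falls of the first group, and Rpl17 (−0.67, SE 0.10), Rpl34 (−0.57, SE 0.16), Rpl5 (−0.55, SE 0.10) and Rps3a1 (−0.53, SE 0.06) had those of the second. The Rpl34 call was lost when any array other than antibody array 2 was left out (adjusted p up to 0.134 over the 6 fits). The oxidative phosphorylation genes had 28 of 90 and a median of −0.15. The difference between these groups was not tested.

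Promoters were searched after these values were seen, since Nrf1 and GABP are known regulators of respiratory genes. RefSeq sequences (GRCm38.p6, from 250 bases before to 50 after a gene's start) were matched by symbol for 72 of the 88 subunits and assembly factors. The NRF1 motif, a palindrome shown in capitals in the windows that follow, was in the promoters of 7 of the 72 genes (9.72%), against 1.07% of 27025 genes and 2.13% of 10304 genes above the guide. The YY1 motif, on either strand, was in 5 of 72 (6.94%), against 0.995% and 2.15%. The ETS motif CCGGAAG, bound by GABP, was in 19 of 72 (26.4%), against 9.93% and 18.8%. The SP motif GGGCGGG was in 27 of 72 (37.5%), against 27.9% and 49.7%, and CCAAT in 30 of 72 (41.7%), against 41.1% and 41.9%. The 19 lower members with a promoter were all of complexes I and V, as no lower gene of complex III or IV was matched. Of these 19, 3 held the NRF1 motif, 3 the YY1 motif and 6 the ETS motif. Of the 53 that did not pass, these numbers were 4, 2 and 13. A match of letters is a description of the sequence and not a site shown to be bound. Whether the motifs have a part in the changes was not tested.

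The windows show the NRF1 motif in capitals with 20 bases on each side, 5′ to 3′ on the gene's strand, for the members that held it before the start site. The first 3 genes were lower with the antibody, and the last pair did not pass.
Ndufaf4: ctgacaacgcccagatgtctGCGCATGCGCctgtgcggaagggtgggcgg
Ndufa11: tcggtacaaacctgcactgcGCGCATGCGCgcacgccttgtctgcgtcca
Atp5k: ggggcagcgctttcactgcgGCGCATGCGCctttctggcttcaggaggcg
Atp5g2: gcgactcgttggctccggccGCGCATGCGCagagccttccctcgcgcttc
Cox6a1: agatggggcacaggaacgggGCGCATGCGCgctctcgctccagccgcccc
In GRCm38.p6 these lie at chr4:24897950-24897999 (plus strand) for Ndufaf4, chr17:56717682-56717731 (plus) for Ndufa11, chr5:108434420-108434469 (minus) for Atp5k, chr15:102671060-102671109 (minus) for Atp5g2 and chr5:115349091-115349140 (minus) for Cox6a1. The changes of these genes were −0.45 for Ndufaf4, −0.33 for Ndufa11, −0.29 for Atp5k, −0.13 for Atp5g2 and −0.18 for Cox6a1. Differences between these changes were not tested.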

How the data were processed

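Intensity values per probe set on a linear scale were deposited by the authors, with RMA and limma named in the submitters' processing notes without version or role. The build is not given in the sources used here. If arrays were brought to one distribution, a shift shared by most genes would be hidden. Median log2 signal was 4.88 to 4.91 on the antibody arrays and 4.93 to 4.95 on the IgG arrays. Each antibody array thus had a lower median than each IgG array. Correlations between arrays were 0.992 to 0.993 within and 0.984 to 0.985 between groups. Between any pair of arrays, up to 6.88% of probe sets held identical values, so a small SD can come from ties.

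Values were taken as log2. Of 41345 probe sets, 23521 had 1 symbol in the platform annotation, which can be old, 1814 had several and 16010 had none. Antibody and IgG arrays were set against each other in limma 3.58.1 (R 4.3.3, lmFit then eBayes, 4 residual degrees of freedom). P-values were adjusted by Benjamini-Hochberg over 22180 genes. The fit was also run on simulated arrays with independent noise and a small part of genes changed. That setting cannot speak to the dependence on scaling. Figures used matplotlib 3.10.9 in Python 3.11.15. Intervals are limma's 95% intervals, not adjusted for the number of genes.

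Members and lists were chosen with earlier results of these data known. Array values were given for up to 6 members per complex and direction by smallest adjusted p, the isoform families and the Sdh genes, and for other lists up to 4 genes past the test by size of change. Other members were named with their change only. Other settings tried were array weights, robust variances, a trend with intensity, centring on medians, cyclic loess, 3 filters on signal, averaged probe sets, other thresholds, a replicate block, and each array left out. Same-numbered arrays did not deviate together (correlations 0.03, −0.05 and 0.00), so the numbers were not taken to pair samples. Precision is limited by there being 3 arrays in a group.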

Additional observations from a re-analysis of the deposited data

How the results depend on the processing

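All 28 lower members kept their direction in the 16 alternative fits, and 9 passed in each. Over all genes, 3548 lower genes became 2346 with cyclic loess and 2232 at an adjusted p of 0.01. The 28 lower members became 16 with arrays centred on their medians, 9 with cyclic loess, 15 with the replicate number as a block and 13 at an adjusted p of 0.01. They became 35 with an intensity trend, 38 with only genes above the receptor guide, 42 with only genes above the median signal and 37 at an adjusted p of 0.10, and 2 members were higher with cyclic loess only (1 each in complexes II and IV). In complex I, 15 lower members became 8 with centring, 4 with cyclic loess, 24 with only genes above the median signal, 7 with the replicate block and 6 at 0.01. In complex III, 4 became 2 with each of centring, cyclic loess, the replicate block (without Uqcrc2 and Uqcrb) and 0.01. In complex IV, 2 became 5 with genes above the median signal. In complex V, 7 became 4 with centring, 1 with cyclic loess, 4 with the replicate block and 3 at 0.01. Medians with centring and with cyclic loess were −0.11 and −0.055 for all members, −0.12 and −0.0565 for complex I, 0.065 and 0.14 for complex II, −0.11 and −0.059 for complex III, −0.094 and −0.039 for complex IV and −0.11 and −0.057 for complex V. Each filter on signal gave −0.18 for complex III, since it removed a pseudogene. With the replicate block, 1 mitochondrially encoded subunit was lower, in place of 4. Causes of the other shifts were not tested.

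Leaving out 1 array gave 2439 to 2620 higher and 2839 to 3425 lower genes, 16 to 24 lower members, 6 to 14 in complex I, 3 to 4 in complex III, 2 to 3 in complex IV and 3 to 6 in complex V, with 0 higher members in each case and 0 lower in complex II. Medians then ran from −0.16 to −0.14 for all members, −0.18 to −0.16 for complex I, 0.01 to 0.03 for complex II, −0.21 to −0.13 for complex III, −0.15 to −0.079 for complex IV and −0.17 to −0.15 for complex V. Signals below the receptor guide limit what Cox7b2, Cox8b and Cox8c can show.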
